A study of Mus musculus with 169 samples.

Results

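The data described here are the levels of 8 cholesterol synthesis enzymes, Hmgcs1, Mvd, Idi1, Fdps, Fdft1, Sqle, Lss and Cyp51, in microglia of mice that lack progranulin. They were chosen as the listed enzymes of the mevalonate and sterol pathway, and every array probe annotated to them was taken. These are 9 of the 55681 probes on the array, since Fdft1 has 2, and 8 of its 20145 named genes. Probes entered the tests where 3 or more arrays read them well above background, which held for all 9 and for 45616 in all. The study profiled brain regions on bead arrays and sorted microglia on 1-colour Agilent arrays, and the microglia are used here. Progranulin, encoded by Grn, is a secreted and lysosomal protein.

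The microglia groups were Grn-/- mice of 16 months (KO, 4 arrays), Grn+/+ mice of 16 months (WT, 4 arrays), Grn-/- mice of 4 months (3 arrays) and Grn+/+ mice of 4 months (4 arrays), all on a C57B/6J background. The deletion is in every cell of the animal. The cells came from Percoll gradients and were sorted with antibodies to CD11b, CD45 and Ly6G. Differences between arrays were measured by their scaled median absolute deviation over probes above background on all arrays. This measure, akin to an SD, leaves out a constant offset. For WT 16-month arrays 1 and 2 it was 0.12 log2 units, and for arrays 3 and 4 it was 0.09. Every other pair within a group had at least 0.38. Repeat spots on single arrays had differences with an SD of 0.21 to 0.39. Each of these 2 pairs was therefore averaged, which left 2 WT replicates at 16 months and 13 replicates in all. The labels do not say whether arrays came from separate mice or from pools, so the p-values measure the spread between these samples.

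Cells build cholesterol from acetyl-CoA. The first, mevalonate part of the pathway makes small isoprenoid units, Fdps joins them to farnesyl diphosphate, and the sterol part converts this through squalene and lanosterol to cholesterol. Genes of both parts share the transcription factor encoded by Srebf2, which is released by a protease in the Golgi when sterols in the endoplasmic reticulum are low. The brain makes its own cholesterol, mostly in glia, and microglia also take it up with the myelin and debris they engulf.

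Promoter sequence on GRCm38.p6 was at hand for 5 of the 8 members. It runs from 250 bases before to 50 bases after a start site and is printed because the members include genes that moved together and genes that did not. This site was the RefSeq gene start for Hmgcs1, Mvd, Idi1 and Cyp51. For Lss it lay further into the gene than the gene start at 76531565. The windows, given 5′ to 3′ on the gene's strand, are chr13:119690101-119690400 (+) for Hmgcs1, chr8:122443373-122443672 (-) for Mvd, chr13:8885356-8885655 (+) for Idi1, chr10:76531355-76531654 (+) for Lss and chr5:4104648-4104947 (-) for Cyp51. Capitals mark, on either strand, TCACNCCAC (a form of the sterol regulatory element, the site bound by the Srebf factors), CCAAT (the NF-Y box) and GGGCGG (the GC box of Sp factors).
Hmgcs1: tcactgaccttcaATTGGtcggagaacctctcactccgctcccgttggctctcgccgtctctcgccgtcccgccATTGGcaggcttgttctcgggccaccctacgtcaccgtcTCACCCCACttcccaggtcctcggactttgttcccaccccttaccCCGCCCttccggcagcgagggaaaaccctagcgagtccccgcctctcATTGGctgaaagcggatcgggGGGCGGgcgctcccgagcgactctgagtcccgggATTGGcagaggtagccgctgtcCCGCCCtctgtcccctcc
Mvd: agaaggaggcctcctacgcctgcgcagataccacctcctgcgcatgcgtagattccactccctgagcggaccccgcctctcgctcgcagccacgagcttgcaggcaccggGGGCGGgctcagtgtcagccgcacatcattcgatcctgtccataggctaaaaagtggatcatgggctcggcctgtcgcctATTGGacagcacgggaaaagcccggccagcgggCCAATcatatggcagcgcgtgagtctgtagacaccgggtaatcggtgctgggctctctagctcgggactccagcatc
Idi1: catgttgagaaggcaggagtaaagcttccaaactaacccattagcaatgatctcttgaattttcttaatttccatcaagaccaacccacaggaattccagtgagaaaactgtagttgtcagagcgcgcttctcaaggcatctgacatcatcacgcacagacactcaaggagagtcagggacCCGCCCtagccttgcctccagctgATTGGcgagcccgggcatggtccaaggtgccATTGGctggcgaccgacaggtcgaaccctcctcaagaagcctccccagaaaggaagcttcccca
Lss: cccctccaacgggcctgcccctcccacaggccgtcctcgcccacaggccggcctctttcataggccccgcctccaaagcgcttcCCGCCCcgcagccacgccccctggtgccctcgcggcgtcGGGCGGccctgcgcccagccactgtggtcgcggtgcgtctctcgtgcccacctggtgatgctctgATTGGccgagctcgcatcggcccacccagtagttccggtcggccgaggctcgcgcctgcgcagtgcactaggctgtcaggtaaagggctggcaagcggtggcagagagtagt
Cyp51: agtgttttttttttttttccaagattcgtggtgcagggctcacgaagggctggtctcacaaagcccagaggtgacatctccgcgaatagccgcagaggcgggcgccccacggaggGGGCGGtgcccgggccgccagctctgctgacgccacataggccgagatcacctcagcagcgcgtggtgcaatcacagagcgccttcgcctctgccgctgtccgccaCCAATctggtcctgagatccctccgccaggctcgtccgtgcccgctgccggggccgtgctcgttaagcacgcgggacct

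TCACNCCAC occurred in 1 of these 5 windows, that of Hmgcs1, where it starts 137 bases before the gene start, and in 1.24% of 32851 promoter windows of the same length. CCAAT and GGGCGG both occurred in 5 of 5 windows, and both together in 12.8% of all windows. CCAAT alone was in 37.4% and GGGCGG alone in 35.7% of all windows. In Hmgcs1, 4 CCAAT boxes and 3 GC boxes were found, and in Mvd 2 and 1. Idi1 also had 2 CCAAT boxes and 1 GC box, Lss had 1 and 2, and Cyp51 had 1 of each. By presence, the 3 motifs did not separate the 3 genes that rose (Hmgcs1, Mvd, Idi1) from the 2 whose difference did not pass (Lss, Cyp51). The number of CCAAT boxes was higher in the 3 that rose (4, 2 and 2, against 1 and 1). With 5 windows this was not tested, and a match is a description, not a site shown to be bound. Fdps, Fdft1 and Sqle had no entry in the table.

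Levels are given as log2 of the array's processed signal over its 75th percentile, so that a value of 0 is the 75th percentile of that array, and differences are KO minus WT on that log2 scale with limma's standard error. Grn itself, the deleted gene, was between -5.81 and -5.28 on the KO arrays of 16 months, none of them above background, and between 4.61 and 5.51 on the WT arrays of that age. At 4 months it was between -3.36 and -2.06 on the KO arrays, all 3 of them well above background, and between 6.13 and 6.32 on the WT arrays. The 75th percentile was 507 to 1037 intensity units on the KO arrays of 16 months and 1010 to 1511 on the WT arrays, with 54.2 to 62.7% and 64.6 to 69.8% of probes well above background. KO array 2 of 16 months stood apart, with the lowest of these values (507 units, 54.2%) and the largest SD of repeat spots (0.39). The median absolute deviation of its differences from the other KO arrays of that age was 0.94 to 1.28 log2 units, against 0.57 to 0.71 among those. Without this array 6 of the 8 members still passed as higher at 16 months. At 4 months the percentile was 1072 to 1752 units on KO arrays and 1306 to 1649 on WT arrays. No spot was saturated. Each age was hybridised on a slide of its own, so each KO difference lies within 1 slide. Differences in level between ages, and changes of the KO difference with age, cannot be told apart from differences between slides. In the array titles the slide number is followed by 1 for WT and by 2 for KO arrays. If this number is the row on the slide, genotype and row cannot be told apart.

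The first comparison asked which enzymes differed between KO and WT microglia at 16 months. Of the 8 genes, 6 rose in KO microglia (Hmgcs1, Mvd, Idi1, Fdps, Fdft1 and Sqle) and none fell, each gene counted by its brighter probe. Lss and Cyp51 did not pass the test. The same rule called 20.4% of genes with a symbol higher and 14.1% lower (17.4% and 12.8% of all probes, 30.2% together). The members were chosen with earlier results of these data known, so their share is not that of a list picked blind. The median difference of the members was 2.19, against 0.20 over all genes with a symbol and 0.10 over all probes. Because these are bulk samples, a change in the mix of cells and a change of RNA per cell cannot be told apart.

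**Figure D1:**
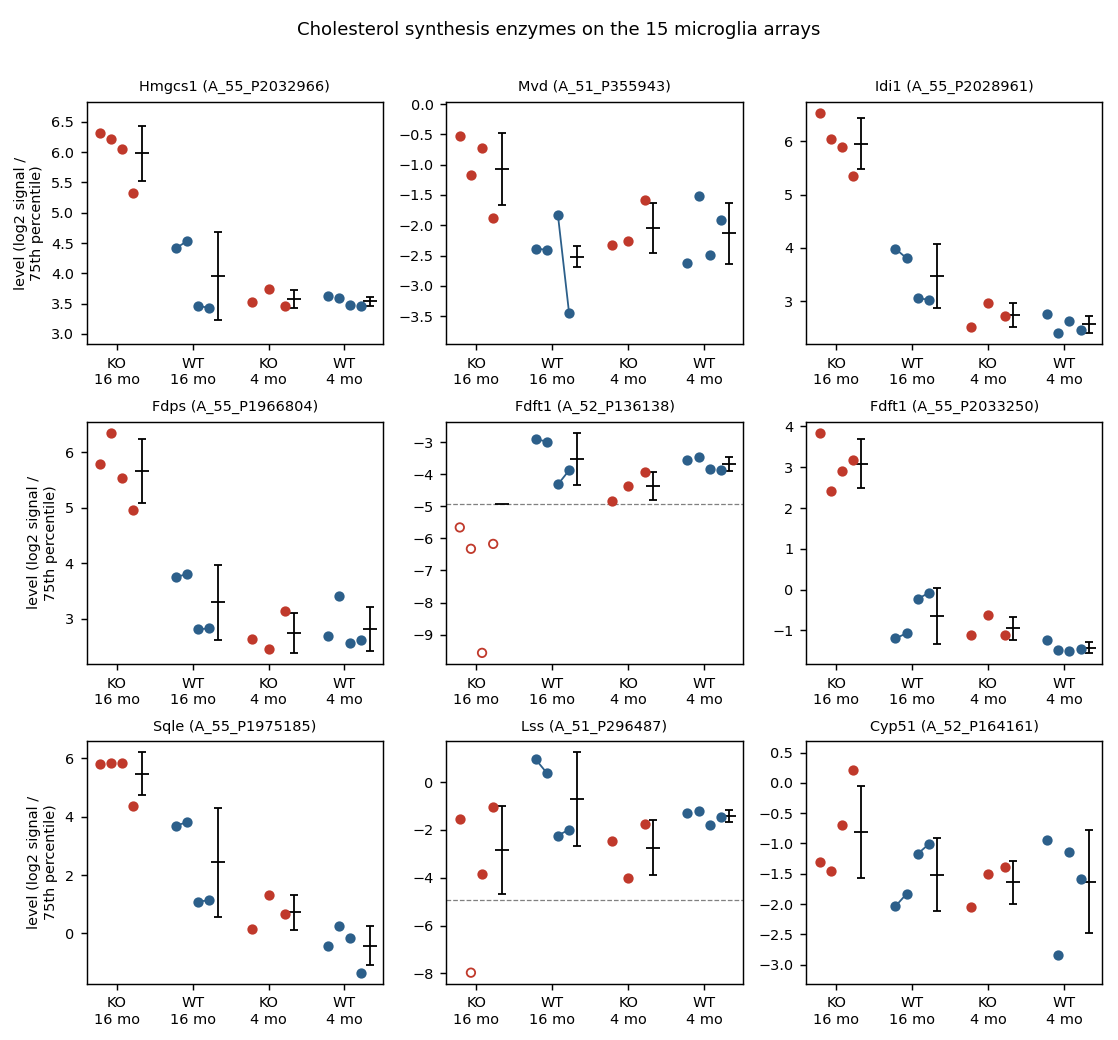
Level of each member probe (log2 signal over the array's 75th percentile, vertical axis) on every microglia array, in red for KO and blue for WT, at 16 months and at 4 months. Open circles are spots not well above background, blue lines join the 2 pairs of WT arrays that were averaged, the bars are the mean and SD over replicates after a floor of -4.94 (dashed where in range) was set, and KO arrays of 16 months lie above all others for Hmgcs1, Idi1, Fdps, Sqle and the upper Fdft1 probe A_55_P2033250.

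Hmgcs1 (chr13:119690351-119708260 on GRCm38.p6, as for all gene positions here) encodes the cytosolic synthase that makes HMG-CoA from acetyl-CoA units. Its level was 6.32, 6.22, 6.06 and 5.32 in KO microglia of 16 months, against 4.41 and 4.53 on the first pair of WT arrays and 3.46 and 3.43 on the second. The groups did not overlap, which was so in the higher direction for 25.6% of genes with a symbol. The difference was 2.02 ± 0.31 (SE, KO n = 4, WT n = 2), or 4.06-fold, with an adjusted p = 0.00123 (limma, Benjamini-Hochberg over all probes tested).

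Mvd (chr8:122433596-122443422) encodes the decarboxylase that produces isopentenyl diphosphate, the isoprenoid unit. Its level was -0.52, -1.16, -0.73 and -1.87 in KO microglia, against -2.39 and -2.41 on the first WT pair and -1.84 and -3.45 on the second. Single arrays of the groups overlapped, while the averaged WT replicates lay below all KO arrays. The arrays of the second WT pair, which nearly coincide over the bright probes, stood apart for this dim probe. The rise was the smallest of the 6, at 1.45 ± 0.42 (SE) or 2.73-fold, with a limma adjusted p = 0.0244.

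Idi1 (chr13:8885606-8892396) encodes the isomerase that supplies the other isoprenoid unit, dimethylallyl diphosphate. KO microglia had 6.53, 6.04, 5.90 and 5.35, against 3.99 and 3.81 on the first and 3.05 and 3.03 on the second WT pair. All KO arrays were above all WT arrays. The difference was 2.49 ± 0.32 (SE), or 5.60-fold (limma adjusted p = 0.000478).

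Fdps (chr3:89093588-89101967) encodes farnesyl diphosphate synthase, whose product feeds the sterols and also protein prenylation, dolichol and ubiquinone. Its level was 5.79, 6.35, 5.53 and 4.97 in KO microglia, against 3.75 and 3.81 on the first and 2.82 and 2.83 on the second WT pair. The groups again did not overlap. The difference was 2.36 ± 0.41 (SE), or 5.12-fold (limma adjusted p = 0.00223).

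Fdft1 (chr14:63145150-63181687) encodes squalene synthase, the first enzyme committed to sterols. On probe A_55_P2033250 its level was 3.85, 2.41, 2.90 and 3.18 in KO microglia, against -1.20 and -1.07 on the first and -0.23 and -0.08 on the second WT pair. No arrays overlapped, and the difference of 3.72 ± 0.37 (SE), or 13.2-fold, was the largest of the members at this age (limma adjusted p = 0.000158). The other probe, A_52_P136138, went the other way, with groups that did not overlap (KO lower), as for 16.3% of all probes tested. It was not well above background on any of the 4 KO arrays (-5.66, -6.33, -9.57 and -6.17), against -2.90 and -2.99 on the first and -4.32 and -3.88 on the second WT pair. Its measured mean was -6.93 in KO and -3.52 in WT microglia. With its KO level set to each KO array's lowest signal well above background, it was 4.10-fold lower in KO microglia. With dim signals set to the floor, the difference was -1.42 (limma adjusted p = 0.00724). The array files do not say which transcripts each probe reads, so the rise of Fdft1 rests on 1 of its 2 probes.

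Sqle (chr15:59315092-59331193) encodes squalene epoxidase, which spends oxygen to make the epoxide that is later closed into the sterol rings. Its level was 5.80, 5.85, 5.85 and 4.37 in KO microglia, against 3.69 and 3.81 on the first and 1.09 and 1.14 on the second WT pair. The KO arrays were all above the WT arrays, but the averaged WT replicates lay apart by more than for the other members that rose (SD 1.86, n = 2). The difference was 3.03 ± 0.73 (SE), or 8.18-fold (limma adjusted p = 0.0108). Without WT arrays 3 and 4 it was 1.71 and no longer passed (limma adjusted p = 0.119), and without WT arrays 1 and 2 it was 4.35 (0.00325). Every fit here without a WT pair of 16 months has 1 WT replicate of that age, assumed to vary like the other groups, from which its spread comes.

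Lss (chr10:76531565-76557139) encodes lanosterol synthase, which closes the rings. KO microglia had -1.54, -7.97 (not well above background), -3.83 and -1.05, against 0.95 and 0.38 on the first and -2.23 and -1.99 on the second WT pair. The groups overlapped and both spread widely. The difference was -2.12 ± 1.11 (SE), with a 95% interval of -4.59 to 0.35 that includes 0 (limma adjusted p = 0.182).

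Cyp51 (chr5:4080674-4104697) encodes the demethylase that acts on lanosterol. Its level was -1.30, -1.45, -0.69 and 0.22 in KO microglia, against -2.04 and -1.83 on the first and -1.17 and -1.01 on the second WT pair. The groups overlapped. The difference of 0.71 ± 0.58 (SE) had a 95% interval of -0.59 to 2.00 (limma adjusted p = 0.408).

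Among the WT arrays of 16 months, Hmgcs1, Idi1, Fdps, Sqle and Lss were all higher on the first pair than on the second. Fdft1 (A_55_P2033250) and Cyp51 were lower on the first pair. In KO microglia of this age, array 4 had the lowest level of Hmgcs1, Mvd, Idi1, Fdps and Sqle and the highest of Lss and Cyp51. Over the 13 replicates, the 28 pairs of members had a median Pearson correlation of 0.70 (-0.34 to 0.99), and of their deviations from the group means 0.07 (-0.79 to 0.90). These are descriptions of replicates that share slides, and the first value holds the group differences themselves.

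The rise of 4 of the 6 genes depended on the spread being shared with the 4-month groups. When the 16-month arrays were fitted by themselves, with the same differences, Idi1 and Fdft1 passed, while the limma adjusted p was 0.0586 for Hmgcs1, 0.105 for Mvd, 0.0544 for Fdps and 0.108 for Sqle. Probe A_52_P136138 of Fdft1 had 0.0702 in that fit and 0.182 with normexp background correction (difference -0.53), and 0.0751 without WT arrays 1 and 2 (-0.84). For Mvd the call was also lost when signals were scaled to the probes detected on all arrays (1.14, adjusted p = 0.0630), without either WT pair (0.0772 and 0.122), and without KO array 1 or 3 (0.0515 and 0.0532). Quantile normalization gave smaller differences that passed, of 1.33 for Hmgcs1, 1.82 for Idi1, 1.68 for Fdps and 2.44 for Sqle.

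**Figure D2:**
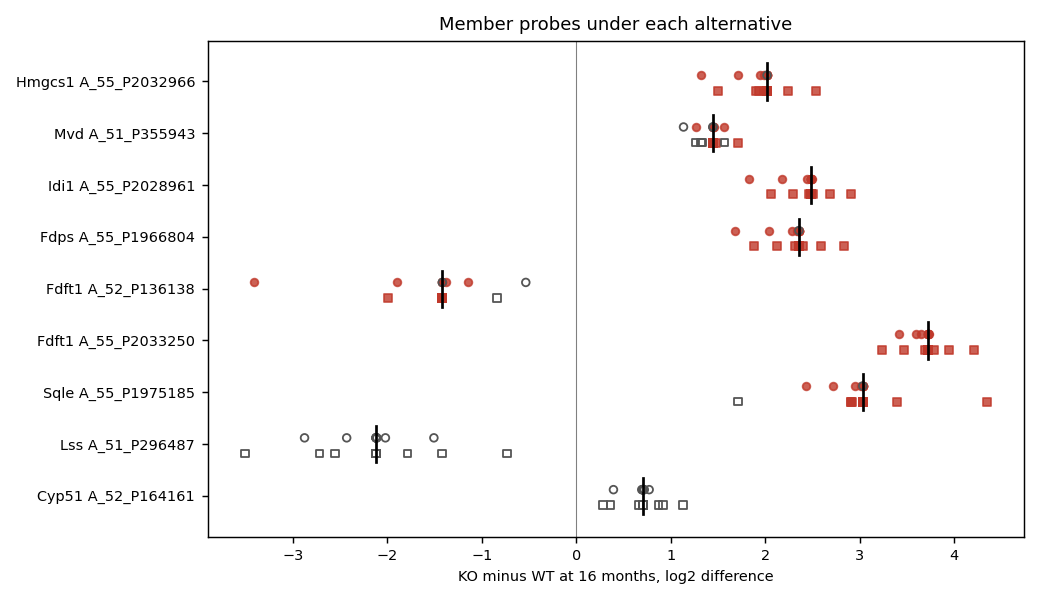
KO minus WT difference at 16 months (log2, horizontal axis) of each member probe under every alternative. Black bars are the reported values, circles other settings of the processing and squares fits without 1 replicate, filled red where the limma adjusted p is under 0.05; Hmgcs1, Idi1, Fdps, Sqle, Mvd and Fdft1 A_55_P2033250 stay above 0 throughout and Fdft1 A_52_P136138 and Lss below it.

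The second comparison asked whether the enzymes already differed at 4 months. None of the 8 genes passed, while 10 of the 45611 probes tested (0.0219%, or 0.0281% of genes with a symbol) did, all counts from limma with Benjamini-Hochberg adjustment. The members' median difference was 0.06, against 0.04 over all genes with a symbol. Unadjusted, 1 member probe had a p under 0.05, A_52_P136138 of Fdft1 (0.0312).

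Hmgcs1 had 3.53, 3.74 and 3.46 in KO microglia of 4 months, against 3.62, 3.59, 3.48 and 3.46 in WT microglia. The groups overlapped and the 95% interval of the difference was -0.58 to 0.65. Idi1 had 2.52, 2.97 and 2.73 against 2.76, 2.40, 2.63 and 2.47 in WT microglia (interval -0.45 to 0.80), and Fdps 2.64, 2.46 and 3.15 against 2.70, 3.41, 2.57 and 2.62 (-0.88 to 0.73). For Mvd the levels were -2.32, -2.26 and -1.58 in KO against -2.62, -1.52, -2.49 and -1.92 in WT microglia (-0.73 to 0.90), and for Cyp51 -2.05, -1.50 and -1.38 against -0.94, -2.85, -1.15 and -1.59 (-1.15 to 1.13). All 5 intervals include 0.

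Fdft1 and Sqle lay higher in KO microglia at 4 months without passing the test. Fdft1 on A_55_P2033250 had -1.11, -0.62 and -1.12, above all WT arrays at -1.23, -1.49, -1.50 and -1.46, with a difference of 0.47 ± 0.33 (SE, KO n = 3, WT n = 4, limma adjusted p = 0.996). Non-overlapping groups with KO higher occurred for 6.52% of genes with a symbol at this age. Its other probe had -4.82, -4.36 and -3.93, below all WT arrays at -3.56, -3.46, -3.84 and -3.88 (difference -0.69, limma adjusted p = 0.744), as 6.34% of all probes were. Sqle had 0.16, 1.33 and 0.67, against -0.42, 0.25, -0.15 and -1.34 in WT microglia, and the groups overlapped (1.14 ± 0.64 SE, limma adjusted p = 0.933). Lss had -2.47, -3.99 and -1.76, against -1.28, -1.19, -1.77 and -1.45 in WT microglia (-1.32 ± 0.98 SE, interval -3.50 to 0.86).

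**Figure D3:**
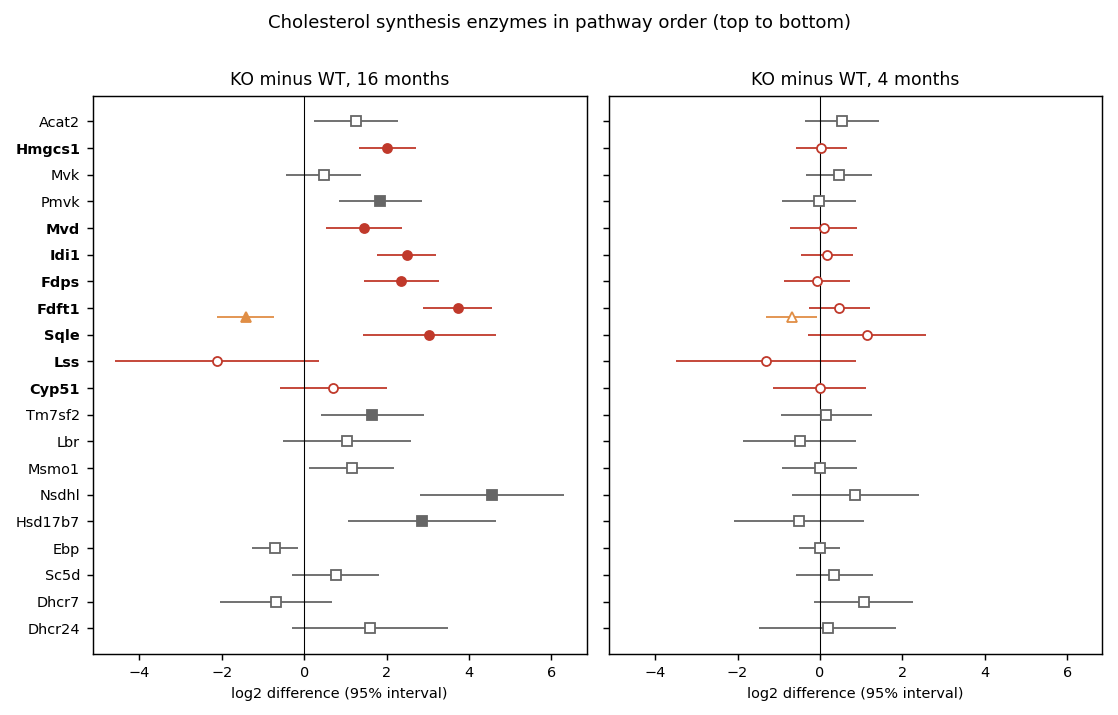
KO minus WT difference (log2, horizontal axis) with its 95% interval for cholesterol synthesis enzymes in pathway order from top to bottom, at 16 months (left) and 4 months (right). Red circles and bold names are the 8 members, grey squares other enzymes of the pathway, the orange triangle the second Fdft1 probe, and filled symbols passed the test, 10 genes at 16 months and none at 4 months.

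The difference between the KO effects at the 2 ages was tested as an interaction. It passed for 4 of the 8 members, where 7.21% of genes with a symbol passed in the higher direction (11.3% of all probes in either). The 4 were Hmgcs1 (1.98 ± 0.42 SE, limma adjusted p = 0.0156), Idi1 (2.31 ± 0.43 SE, 0.00917), Fdps (2.43 ± 0.55 SE, 0.0201) and Fdft1 on A_55_P2033250 (3.25 ± 0.50 SE, 0.00448). For Mvd it was 1.36 ± 0.56 (SE, limma adjusted p = 0.140) and for Sqle 1.90 ± 0.97 (SE, 0.236), so a larger KO effect at 16 months was not shown for these. Lss (-0.80 ± 1.49 SE) and Cyp51 (0.72 ± 0.78 SE) also did not pass. Without WT arrays 3 and 4 of 16 months, Fdps no longer passed (1.95, limma adjusted p = 0.0635), and the other Fdft1 probe, which had -0.73 (0.289), did (-1.31, 0.0416). Without WT arrays 1 and 2, Sqle passed (3.22, 0.0471). Both fits have 1 WT replicate at 16 months and take its spread from the other groups.

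The other 13 enzymes of cholesterol synthesis give the members' pathway context. At 16 months 4 of the 13 rose in KO microglia and none fell, with a median difference of 1.26, against 20.4% called higher and a median of 0.20 over all genes with a symbol. Of all 21 enzymes 10 rose and none fell (median 1.59). Pmvk, the kinase before Mvd, was 1.85 ± 0.46 (SE) higher (limma adjusted p = 0.0126) and also rose on its second probe (1.67). Tm7sf2, a sterol reductase after Cyp51, was 1.65 ± 0.56 (SE) higher (0.0480), and its second probe 2.26 higher. That call of Tm7sf2 was kept under 9 of 24 alternatives. Hsd17b7, which works in the removal of the sterol methyl groups, was 2.87 ± 0.81 (SE) higher (0.0224), but its second probe had a difference of 1.33 that did not pass (0.481). Without WT arrays 3 and 4, Pmvk and Hsd17b7 did not pass (1.42, adjusted p = 0.111, and 2.19, 0.168).

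Nsdhl, which acts in the same demethylation, had a difference of 4.56 ± 0.79 (SE, limma adjusted p = 0.00212). Its size was 3.96 without KO array 1, 3.86 with normexp and 5.74 without a floor on dim signals, and passed each time. It ranged from -0.56 to 2.66 on the KO arrays and from -9.64 to -1.46 on the WT arrays, 3 of 4 of which were well above background. Its second probe had a difference of -2.21 that did not pass (adjusted p = 0.138), so its probes disagreed, as those of Fdft1 did.

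Acat2, which makes acetoacetyl-CoA, did not pass (1.26, limma adjusted p = 0.0608), and neither did Mvk, the mevalonate kinase (0.47, 0.431). Ebp, a sterol isomerase named after its values were seen, had -0.71 (unadjusted p = 0.0181, adjusted 0.0572). At 4 months 0 of the 13 passed in limma, 0 had an unadjusted p under 0.05, and their median was 0.15. With the 16-month arrays fitted by themselves, Hsd17b7 was the 1 of the 13 that passed.

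Of 14 genes of sterol sensing and uptake, 2 rose and 2 fell at 16 months, with a median difference of 0.71, where 20.4% of all genes with a symbol were called higher and 14.1% lower. These shares are close to the list's own, so the counts say nothing particular of it. Insig2, which holds the Srebf complex in the endoplasmic reticulum, was 1.74 ± 0.29 (SE) higher (limma adjusted p = 0.00211), with 0.19 (0.950) on its second probe. One KO array of 4 months had an outlier-flagged Insig2 spot and was left out of its fit. Npc2, which carries cholesterol inside lysosomes, was 1.54 ± 0.29 (SE) higher (0.00345), and with quantile normalization 0.82 (0.125). Mylip, a ubiquitin ligase that limits lipoprotein uptake, fell by 2.16 (0.00419), with -1.13 (0.183) on its second probe. Mbtps1, the first protease that cuts the Srebf factors, fell by 1.22 (0.0373) on its brighter probe and had 2.31 (0.0887) on the other. That call was kept under 13 of 24 alternatives.

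Srebf2 itself had -3.14 to -1.10 on KO and -2.35 to 0.04 on WT arrays of 16 months (-1.11 ± 0.65 SE, limma adjusted p = 0.234), and its second probe had 0.58 (0.295). The first probe's difference was -2.17 without WT arrays 1 and 2 and -0.04 without WT arrays 3 and 4. Srebf1, its relative in fatty acid control, had 0.55 ± 0.51 (SE, 0.472), Scap, their escort, -0.53 (0.432) and Insig1, the relative of Insig2, 1.49 ± 0.72 (SE, 0.143). Acat2, Mvk, these 4 genes of sensing and uptake, and Abca1 are named for their roles after their values were seen. At 4 months 0 of the 14 passed in limma, and 0 had an unadjusted p under 0.05.

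Sterol export and storage had 2 of 10 genes higher and 2 lower at 16 months, with a median of -0.37, against 20.4% higher and 14.1% lower over all genes with a symbol. Apoe, the main apolipoprotein of the brain, was 1.58 ± 0.24 (SE) higher (limma adjusted p = 0.00107), at 8.19 to 8.88 on KO and 6.83 to 7.16 on WT arrays. Cyp46a1, a neuronal enzyme that hydroxylates cholesterol for removal, was 2.17 ± 0.62 (SE) higher (0.0232). Abcg1, a sterol exporter, fell by 2.43 (0.000312), and Ch25h, which makes an oxysterol, fell by 3.84 (0.0173). Abca1, the other main exporter, had -1.71 ± 0.59 (SE, 0.0522). Cyp46a1 did not pass without either WT pair (adjusted p = 0.0767 and 0.119), and Ch25h did not without WT arrays 1 and 2 (0.148). Apoe was also the 1 gene of all these lists that passed at 4 months (1.82 ± 0.21 SE, limma adjusted p = 0.0424), a call kept under 11 of 24 alternatives.

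In the non-sterol branches, 1 of 9 genes rose and 1 fell at 16 months (median 0.15), against 20.4% and 14.1% of all genes with a symbol. Ggps1, which extends farnesyl to geranylgeranyl diphosphate, was 1.12 ± 0.31 (SE) higher (limma adjusted p = 0.0223), but not without either WT pair (0.117 and 0.0682) or on its second probe (-0.38, 0.363). Trit1, which moves an isopentenyl group to tRNA, fell by 2.55 (0.00141), with -1.47 (0.255) on its second probe. At least 1 WT array of 16 months was outlier-flagged for the brighter Trit1 probe and was left out of the average of its pair. Of 9 fatty acid synthesis genes, counted by their brighter probes, 2 rose and 1 fell (median 1.92). Acss2 and Me1, named after their values were seen, did not pass on these probes (1.92, limma adjusted p = 0.0710, and 1.77, 0.268). Their dimmer probes passed, at 2.06 (0.00181) for Acss2 and at 2.67 (0.0463) and 2.96 (0.0212) for Me1. The dimmer probe of Acly did not (-0.79, 0.357). Scd1 and Scd2, desaturases of fatty acids, were 4.81 ± 0.55 and 2.72 ± 0.34 (SE) higher (0.000255 and 0.000444), and Mlxipl, a sugar-sensing transcription factor, fell by 4.78 (0.000531). At 4 months 0 genes of either list passed in limma, and 1 and 2 had an unadjusted p under 0.05. With the 16-month arrays fitted by themselves, Insig2, Apoe, Abcg1, Scd1, Scd2 and Mlxipl were the genes of these 4 lists that passed.

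**Figure D4:**
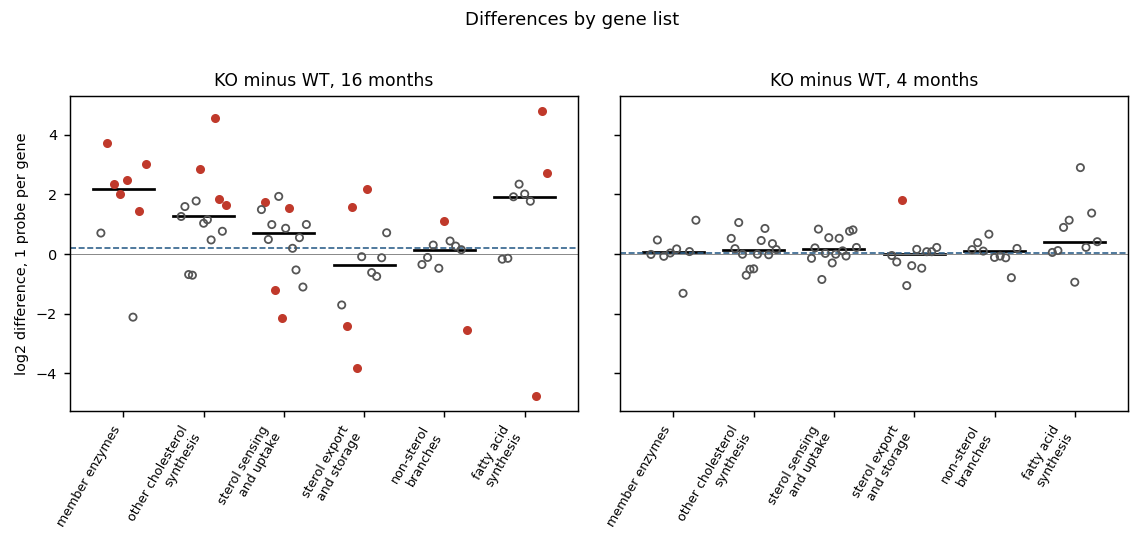
KO minus WT difference (log2, vertical axis) of every gene of the members and 5 related lists at 16 months (left) and 4 months (right), 1 probe per gene. Filled red points passed the test, black bars are list medians and the dashed blue line is the median of all genes with a symbol; the members' median at 16 months is 2.19 and at 4 months 0.06.

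Some markers of microglia and of other cells also differed by genotype on these arrays. At 16 months the same test called 20.4% of genes with a symbol higher and 14.1% lower. Summed signals, in multiples of the array's 75th percentile, are given here beside the members' rise, and their part in it was not tested. At 16 months 9 of 10 microglia markers fell in KO arrays (sum 230 to 570 on KO and 1045 to 1909 on WT arrays), although all 10 were above background on every array. Choroid plexus markers were 3 of 8 higher (sum 917 to 1645 on KO and 317 to 588 on WT arrays). Astrocyte markers were 3 of 8 higher and 1 lower (47.2 to 105 on KO, 30.8 to 42.3 on WT arrays), and oligodendrocyte markers 1 of 8 higher and 4 lower (30.2 to 141 on KO, 180 to 223 on WT arrays).

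Endothelial markers were 2 of 7 higher and 2 lower at 16 months (23.7 to 109 on KO, 18.1 to 18.6 on WT arrays), and neuronal ones 1 higher and 1 lower of 7 tested (6.67 to 12.0 on KO, 5.43 to 8.59 on WT arrays). Border macrophage markers had 0 of 6 that passed in limma and 1 with an unadjusted p under 0.05 (18.9 to 59.4 on KO, 32.3 to 59.7 on WT arrays), while 1 of 4 monocyte markers (1.21 to 71.3 on KO, 11.5 to 60.4 on WT arrays) and 1 of 5 neutrophil markers (0.52 to 129 on KO, 60.2 to 284 on WT arrays) were higher. With so few genes per list, these counts say nothing particular beside the 20.4% higher and 14.1% lower of all genes with a symbol. Of the 5 neutrophil markers, 1 to 3 were well above background on the KO arrays and 4 or 5 on the WT arrays. At 4 months, where no member passed, the choroid plexus sum was 182 to 288 on KO and 10.9 to 127 on WT arrays, and the microglia sum 1457 to 2309 on KO and 1510 to 1981 on WT arrays.

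The genes whose pattern over the 13 replicates was most like the members' mean, outside the pathway lists, were Rhod (Pearson r = 0.99), Col4a4 (0.99), Slc6a20a (0.99), Tusc3 (0.99) and Rd3 (0.98). All 5 were higher in KO microglia at 16 months (3.33 to 4.36) with differences of -0.21 to 0.46 at 4 months. Their selection largely fixed this, since the members' mean over the same replicates holds the KO rise at 16 months. By deviations from the group means the 5 most alike were Gm20604 (0.97), Plcxd1 (0.96), Calml3 (0.93), Sgo2a (0.92) and Selenow (0.92), of which Plcxd1 was higher (3.17) and the other 4 were lower (-4.51 to -2.46) in KO microglia at 16 months. The correlations are descriptions over replicates that share slides.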

How the data were processed

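RNA of sorted microglia was measured on 15 Agilent arrays. Per the file headers, the authors' intensities are Feature Extraction 10.7.3.1 processed signals (background-subtracted) of array design 028005. At 4 months these also differ from the plain background-subtracted signal by a median of 4.48 to 9.14% per array, at 16 months by under 0.0001%. R 2.15.3 is named in the submitters' processing notes.

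The deposited intensity was divided by the array's 75th percentile, floored at 0.0325 of it (log2 -4.94, the highest of the arrays' lowest signals well above background) and log2-transformed. Control spots and outlier flags were left out, and spots of a probe were averaged. Probes well above background on at least 3 arrays were tested with limma 3.58.1 (R 4.3.3) over all 4 groups, two-sided, with Benjamini-Hochberg adjustment over all probes tested and a threshold of 0.05. A gene was counted by its probe with the highest mean level. The fit was tested on simulated data. Gene names came from a match of the arrays' accessions to RefSeq, which named 26582 of 55681 probes. The number of arrays limits the precision.

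The members and gene lists were chosen with earlier results of these data known. Named genes are all members, every gene of another list that passed at either age (with none, its first 3), and the 5 and 5 genes most like the members. Others are named for their roles or their dimmer probes. Single values of 2 listed genes are not reported here. WT and KO arrays with the same number deviated with r of -0.04 to -0.03 at 4 months (3 pairs) and 0.08 to 0.14 at 16 months (4 pairs), against -0.14 to -0.08 for other numbers there. The 16-month values rest on the single contrast between the 2 WT replicates, and not every pair exceeded 0.1, so the numbers were not taken as pairs. The brain bead arrays were not analysed here, because their probes could not be named from the tables at hand. In the planned normexp alternative the median spot signal stood in for the mean.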

Additional observations from a re-analysis of the deposited data

Results flagged for a closer look

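In 3 of the 61 groups of 4 arrays examined, 1 array stood apart from the others by Dixon's test at the 95% level, and chance gives about 1 in 20. Sqle was 4.37 on KO array 4 of 16 months, against 5.80 to 5.85 on the other KO arrays. Fdps was 3.41 on WT array 2 of 4 months, against 2.57 to 2.70 on the others, and Fdft1 (A_55_P2033250) was -1.23 on WT array 1 of 4 months, against -1.50 to -1.46.

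The KO effect at 16 months differed from that at 4 months, by the limma interaction, for 11 of the 31 probes examined. Most of the related genes among the 31 were named because they passed at 16 months, so this count cannot be read against the 11.3% of all probes with such a difference. Among the members these were Hmgcs1 (1.98, adjusted p = 0.0156), Idi1 (2.31, 0.00917), Fdps (2.43, 0.0201) and Fdft1 (3.25, 0.00448). Of the related genes, Nsdhl (3.70, 0.0479), Scd1 (3.44, 0.0159), Scd2 (2.30, 0.0126) and Insig2 (1.53, 0.0405) had a higher KO effect at 16 months. Mlxipl (-5.00, 0.00626), Trit1 (-2.74, 0.0122) and Abcg1 (-2.16, 0.00793) had a lower one.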

How the results depend on the processing

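At 16 months, Fdft1 (A_55_P2033250) ranged from 3.24 to 4.21 and Idi1 from 1.82 to 2.91 over 24 alternatives, and both passed under each. With each age fitted by itself, 2 of 8 members were higher, and 1 of the 13 other synthesis genes, 1 sensing, 2 export and 0 non-sterol genes passed. With all 15 arrays as separate replicates 8 of the 13 passed. Scaled to the probes detected on all arrays, 1 non-sterol gene passed. That scaling turned the split of all probes to 5986 higher and 7514 lower, against 7935 and 5856, and their median difference to 0 from 0.10; normexp moved it to 0.47. Leaving out 1 replicate gave 4 to 6 members at 16 months and 3 to 5 for the age difference. It gave 1 to 7 of the 13 other synthesis genes (1 without WT 16-month arrays 3 and 4, 2 without KO 16-month array 1, 7 without KO 16-month array 2), 3 to 6 sensing genes and 2 to 6 export genes at 16 months (2 without WT arrays 1 and 2). Export genes at 4 months were 0 to 1. At 16 months non-sterol genes were 1 to 2 (fewest in the fits with 1 WT replicate of that age). Fatty acid genes at 16 months were 3 to 5 (5 without WT 4-month array 4). The Apoe call at 4 months, the 1 export gene there, gave 0 with quantile normalization, with probes above background on all 15 arrays, with the 4-month arrays by themselves, with the replicate block and without a floor on dim signals (chosen after seeing the data).

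Small 4-month differences changed sign. Hmgcs1 was -0.033 with detected-probe scaling, -0.055 with quantile normalization and -0.046 to 0.095 without single arrays. Mvd was -0.15 to 0.29 and Fdps -0.28 to 0.12 without single arrays, and Fdps was 0.0019 with normexp. Cyp51 was 0.033 with normexp, 0.0065 with the median signal, 0.14 with quantile normalization, 0.0030 with the replicate block and -0.42 to 0.22 without single arrays. Without WT arrays 1 and 2 of 16 months, the age difference of Lss was 0.59 and Srebf1 was -0.012. The causes were not tested.

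The replicate block, for numbers not taken as pairs, left 5352 probes higher and 4861 lower at 16 months, and ended the 16-month calls of Mvd (adjusted p = 0.0675), Cyp46a1 (0.0688), Ch25h (0.0764), Tm7sf2 (0.120) and Mbtps1 (0.125). With it Srebf2 passed as lower (-1.11, 0.0198). The brain comparisons and their alternatives were not run.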
